A study of Mus musculus with 20 samples.

Results

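Cnr1, Faah, Dagla, Daglb, Napepld and Abhd6 encode the brain cannabinoid receptor CB1 and enzymes that make or break down its ligands. These 6 genes were chosen as a list by name, and each was matched by symbol to 1 of the 57180 gene identifiers measured. All 6 passed the filter on low counts in every comparison. They were followed through 4 groups of RNA sequencing libraries made from punches of mouse brain, taken either from the paraventricular thalamic nucleus (PVT), a midline thalamic nucleus, or from the posterior insular cortex (pIC), a cortical area that receives pain and body signals. Control mice had received vehicle. STZ mice had received 1 intraperitoneal injection of 200 mg/kg streptozotocin, a beta-cell toxin used to model painful diabetic neuropathy, and tissue was collected at week 7. No strain, age, sex, blood glucose or pain measurement of these animals is given in the sources used here. Each region had 4 libraries of control mice and 6 of STZ mice, so 20 were measured, and each is named here by the number in its label. Labels do not say whether equal labels in PVT and pIC mark the same mouse, or whether libraries came from single or pooled animals, so p-values measure the spread between these libraries.

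Endocannabinoids are lipid messengers that a neuron makes on demand from its membrane and that mostly act backwards across the synapse. They bind CB1 on the presynaptic terminal, where the receptor lowers transmitter release through inhibitory G proteins. One ligand, 2-arachidonoylglycerol (2-AG), is made by diacylglycerol lipases and removed mainly by monoacylglycerol lipase, while the other, anandamide, belongs to the N-acylethanolamines and is removed by fatty acid amide hydrolase. The system is studied in pain because CB1 and these enzymes are present along the pathways that carry and evaluate pain signals.

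Libraries held 17.9 M to 25.5 M counts. Markers of the dissected tissue were tested first, with edgeR and the control mice of each region. The thalamus neuron list was higher in PVT for 8 of 10 markers. Of 8 PVT neuron markers, 4 were higher and 2 lower in PVT. The cortical excitatory neuron list was lower in PVT for 7 of 10. PVT punches also held more RNA of neighbouring tissue, since all 8 choroid plexus, all 8 ependyma and all 8 oligodendrocyte markers were higher in PVT than in pIC. Punches of one region differed among themselves. The thalamus score, the mean over its list of log2 CPM (counts scaled to library size), ran from 4.17 to 6.99 over PVT libraries. The striatal score ran there from 3.75 to 7.84, the habenula score from 0.29 to 4.52 and the hypothalamus score from -2.21 to 4.54. PVT control replicate 4 stood apart with 15148 CPM summed over 6 pituitary markers, against 2.33 CPM in the lowest library of its group. In pIC, STZ replicate 3 had the highest striatal score, 7.73, and the lowest cortical score, 6.60. The ependyma score in PVT was lower in every STZ library (2.76 to 3.28) than in every control library (3.45 to 3.99), and 7 of its 8 markers were called lower. In bulk tissue fewer cells of a type and less RNA per cell cannot be told apart.

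Cnr1 (ENSMUSG00000044288), the CB1 receptor on presynaptic terminals, was measured in PVT control libraries 1 to 4 at 117, 128, 114 and 115 CPM. PVT STZ libraries spanned 98.5 to 146 CPM with a median of 129, and the 2 lowest were replicates 5 and 6, at 98.5 and 103 CPM. In pIC control libraries Cnr1 stood at 162, 165, 208 and 170 CPM, and pIC STZ libraries ran from 162 to 216 CPM with a median of 184. Every pIC library lay above every PVT library, while control and STZ libraries overlapped in both regions.

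Dagla (ENSMUSG00000035735), the diacylglycerol lipase that makes most synaptic 2-AG, had the widest difference between regions of the 6 genes in control mice, while in STZ mice Faah had. PVT control libraries held 56.1, 72.7, 71.4 and 36.9 CPM, the lowest in replicate 4. PVT STZ libraries held 58.3 to 84.3 CPM with a median of 72.1. The 4 pIC control libraries held 133, 128, 120 and 129 CPM, and pIC STZ libraries 109 to 143 CPM with a median of 130. No PVT library reached the lowest pIC library.

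Daglb (ENSMUSG00000039206), the second diacylglycerol lipase, was measured at 25.4, 30.0, 30.4 and 23.1 CPM in PVT control and at 37.4, 30.8, 31.6 and 35.4 CPM in pIC control libraries. STZ libraries ran from 23.8 to 28.3 CPM in PVT (median 26.8) and from 28.8 to 36.4 CPM in pIC (median 33.7). Regions did not overlap within control mice or within STZ mice, but the gaps were narrow, and PVT control overlapped pIC STZ. In the GENCODE M21 annotation, 24.1% of the Daglb exon bases also belong to Rac1 on the opposite strand, a gene with 159158 counts over all libraries against 13541 for Daglb. Libraries were stranded per the labels, but the strand setting of the counting is not given in the sources used here, so Daglb counts may hold Rac1 reads and are uncertain. Rac1 itself had 352 ± 10.2 CPM in PVT and 352 ± 11.8 CPM in pIC of control mice (mean ± SD, n = 4 each). None of the other 5 genes shared exon bases with another annotated gene.

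Abhd6 (ENSMUSG00000025277), a serine hydrolase that removes a share of 2-AG on the postsynaptic side, had 37.3, 45.0, 44.4 and 37.1 CPM in PVT control libraries. PVT STZ libraries lay between 42.3 and 51.5 CPM with a median of 44.9. pIC control libraries had 63.6, 66.3, 61.2 and 61.5 CPM, and pIC STZ libraries 57.1 to 72.5 CPM with a median of 65.4. As for Cnr1 and Dagla, all pIC libraries were above all PVT libraries.

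Napepld (ENSMUSG00000044968), the phospholipase D that releases anandamide and its relatives from membrane precursors, had similar group means in both regions. PVT control libraries held 20.3, 16.6, 23.7 and 12.1 CPM. PVT STZ libraries 1 to 6 held 12.6, 13.9, 14.6, 21.8, 34.1 and 26.9 CPM, so that replicates 1 to 3 were at the low end and replicate 5 was the highest of all 20 libraries. pIC libraries were closer together, at 19.4, 17.5, 19.5 and 17.4 CPM in control and 15.7 to 22.0 CPM in STZ mice (median 20.3). All 4 groups overlapped. The coefficient of variation was 41.5% in PVT STZ and 27.3% in PVT control, against 11.1% and 6.31% in the corresponding pIC groups.

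Faah (ENSMUSG00000034171), the hydrolase that breaks down anandamide, had 34.7, 46.7, 55.8 and 24.8 CPM in PVT control libraries. PVT STZ libraries ran from 25.3 to 49.8 CPM with a median of 44.3. In pIC the control libraries had 83.1, 85.9, 76.7 and 89.9 CPM, and the STZ libraries 51.3 to 93.3 CPM with a median of 80.0. The lowest pIC library, STZ replicate 3, fell below the highest PVT control library, so that PVT control and pIC STZ overlapped, whereas within control mice and within STZ mice the regions were separate.

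**Figure D1:**
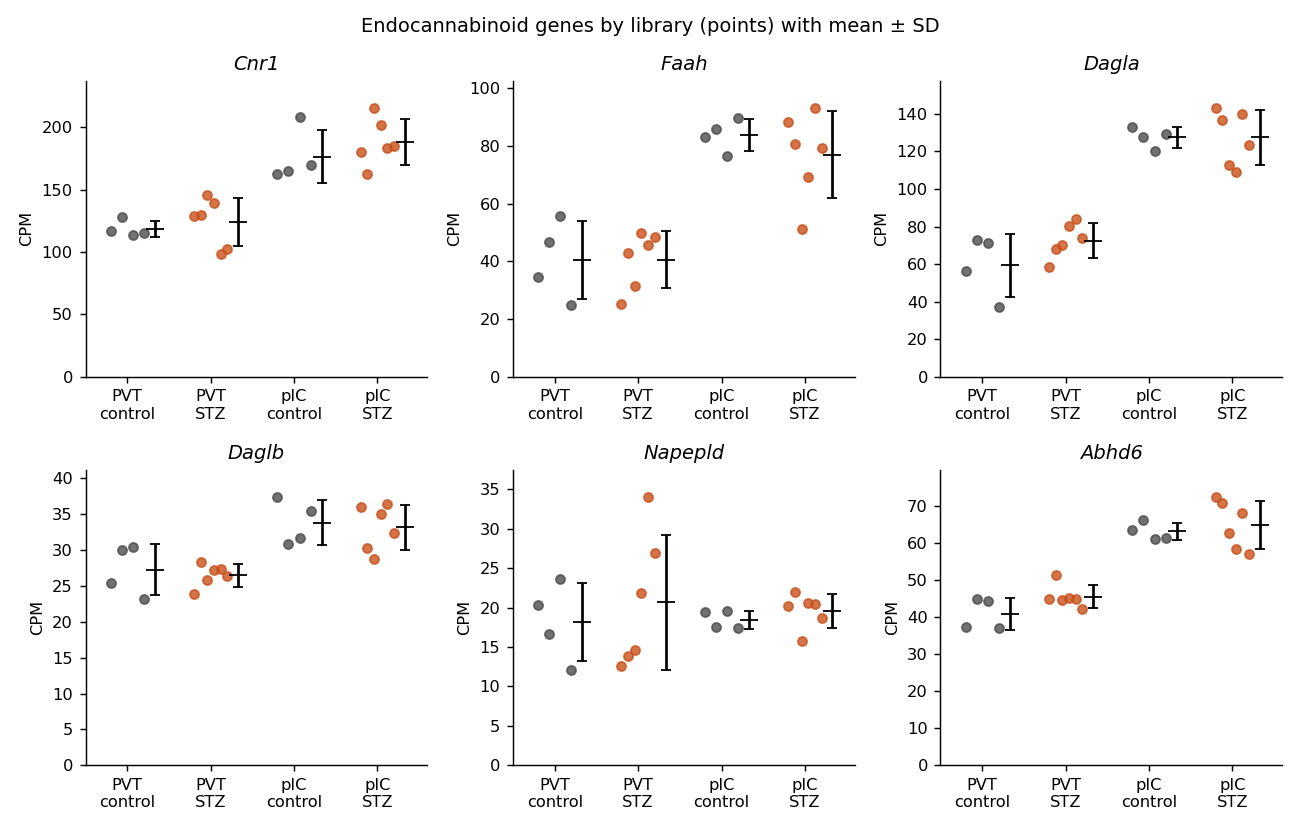
CPM of each of the 6 genes (y axis, linear, from 0) in the 4 groups (x axis), with 1 point for each library and bars for the mean and SD. Cnr1, Dagla and Abhd6 lie higher in every pIC library than in every PVT library, Faah and Daglb do so within control and within STZ mice, and Napepld overlaps in all groups.

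Levels of different genes were compared only after dividing CPM by the annotated exon length in kilobases. On this scale pIC control libraries had means of 27.4 CPM per kilobase for Cnr1, 26.7 for Abhd6, 22.2 for Dagla, 10.7 for Faah, 4.67 for Napepld and 3.53 for Daglb. PVT control libraries gave the same order, with 18.4 for Cnr1, 17.3 for Abhd6, 10.3 for Dagla, 5.17 for Faah, 4.60 for Napepld and 2.85 for Daglb. Mgll, the monoacylglycerol lipase that removes most 2-AG, stood above them with 57.1 CPM per kilobase in pIC and 27.1 in PVT of control mice. Abhd12, which also breaks down 2-AG, stood above Mgll, with 110 in pIC and 75.1 in PVT of control mice. The length used counts every annotated exon base of a gene, so the order rests on that length.

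The first comparison asked whether the genes changed with STZ in each region. None of the 6 was called in PVT at an adjusted p under 0.05 (edgeR quasi-likelihood test, Benjamini-Hochberg over 17076 genes, of which 2.07% were called), and none was called in pIC, where 1.4% of 16189 genes were called. No member had an unadjusted p under 0.05 either, a level reached by 17.8% of genes in PVT and 11.8% in pIC. Control and STZ libraries overlapped for all 6 genes in both regions, while 6.2% of genes in PVT and 4.28% in pIC had groups that did not overlap. The median log2 fold change of the 6 genes was 0.11 in PVT and 0.02 in pIC, beside 0.0038 and -6.3e-04 over all genes tested. PVT control replicate 4, the library with pituitary markers, was the lowest control library for 5 of the 6 genes, as for 27.9% of all genes. Without it the median of the 6 genes in PVT was 0.04, beside 0.0099 over all genes, and 4 of 6 were positive.

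For the receptor, Cnr1 averaged 124 ± 19.3 CPM in PVT STZ (mean ± SD, n = 6) against 119 ± 6.75 CPM in control libraries (n = 4). The log2 fold change was 0.06 (SE 0.108, 95% interval -0.17 to 0.30, edgeR adjusted p = 0.802). In pIC the means were 188 ± 18.5 and 176 ± 21.4 CPM, a log2 fold change of 0.09 (SE 0.0876, interval -0.10 to 0.28, adjusted p = 0.75). These intervals, given as change from control, run from -11.3% to 23.4% in PVT and from -6.45% to 21.5% in pIC. Leaving out single libraries moved the log2 fold change of Cnr1 between 0.01 and 0.12 in PVT, lowest without STZ replicate 3 and highest without STZ replicate 5. In pIC it moved between 0.05 without STZ replicate 3 and 0.18 without control replicate 3, the highest control library.

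Among the 2-AG enzymes, Dagla had the largest difference with STZ of the 6 genes, in PVT: 72.5 ± 9.28 CPM in STZ and 59.3 ± 16.7 CPM in control libraries, a log2 fold change of 0.29 (SE 0.177, interval -0.10 to 0.68, edgeR adjusted p = 0.431). Without PVT control replicate 4, the library with pituitary markers, it was 0.12. In pIC, Dagla averaged 127 CPM in both groups, and the interval ran from -0.16 to 0.16 on the log2 scale. Abhd6 in PVT came closest to the unadjusted level, with 45.5 ± 3.08 against 41.0 ± 4.32 CPM, a log2 fold change of 0.15 (SE 0.0757, interval -0.01 to 0.32) and an adjusted p of 0.331. With the ependyma score as a covariate, a score that was lower in every STZ library, the values in PVT turned to -0.14 for Dagla and -0.14 for Abhd6 (adjusted p = 1.00 for both). Its difference in pIC was 0.04 (SE 0.0691, adjusted p = 0.881). Daglb differed by -0.04 in PVT and by -0.03 in pIC (SE 0.0848 and 0.0806, adjusted p = 0.836 and 0.929).

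For the anandamide enzymes the data were less precise in PVT. Napepld had a log2 fold change of 0.18 there with an interval of -0.50 to 0.87 (SE 0.307, edgeR adjusted p = 0.803), so that changes from -29.3% to 82.3% lay inside it. Its value was -0.02 without PVT STZ replicate 5 and -0.0018 with the thalamus score as a covariate. In pIC the same gene differed by 0.09 (SE 0.0868, interval -0.10 to 0.27, adjusted p = 0.766). Faah in PVT averaged 40.6 ± 9.94 CPM in STZ and 40.5 ± 13.6 CPM in control libraries, a log2 fold change of 0.0040 with an interval of -0.55 to 0.55. In pIC it averaged 77.1 ± 15.05 against 83.9 ± 5.56 CPM, a log2 fold change of -0.12 (SE 0.137, interval -0.42 to 0.18, adjusted p = 0.795), and -0.03 without STZ replicate 3, the library with the highest striatal score.

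The half-width of the 95% interval in PVT was 0.68 for Napepld, 0.55 for Faah and 0.39 for Dagla, wider than the median of 0.26 over all genes tested. For Abhd6 (0.17), Daglb (0.19) and Cnr1 (0.24) it was narrower than that median. A difference within these widths could not be called with these libraries. The intervals are not adjusted for the number of genes tested, so wider differences could also go uncalled.

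The difference between regions in the effect of STZ was tested over all 20 libraries as an interaction. Dagla had the largest value, with the PVT effect exceeding the pIC effect by 0.28 on the log2 scale (SE 0.203, interval -0.15 to 0.70, unadjusted p = 0.19, edgeR adjusted p = 1.00). Without single labels this value ran from 0.11, without control replicate 4, to 0.42, without control replicate 3. The other 5 genes had values from -0.04 (Cnr1) to 0.11 (Faah). No gene of 17427 was called in this test (0%) by edgeR, 701 genes (4.02%) had an unadjusted p under 0.05, and DESeq2 called 4 genes.

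The second comparison set PVT against pIC. In control mice 5 of the 6 genes were lower in PVT (edgeR), where 22.4% of 16614 genes were lower and 47.8% were called in either direction. In STZ mice, which are other animals, the same 5 genes were lower in PVT, where 23.1% of 16489 genes were lower and 49.1% were called in either direction. Every PVT library was below every pIC library for 5 of 6 genes in control and in STZ mice, a pattern held by 21.9% and 12.9% of genes. The median log2 difference of the 6 genes was -0.59 in control and -0.56 in STZ mice, beside 0.02 over all genes in both.

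Cnr1 was 1.48-fold higher in pIC than in PVT of control mice, a log2 difference (PVT minus pIC) of -0.57 (SE 0.0888, edgeR adjusted p = 4.4e-04), and in STZ mice it was 1.52-fold higher in pIC (-0.60, SE 0.0986, adjusted p = 2.6e-04). Dagla was 2.14-fold higher in pIC of control mice (log2 -1.10, SE 0.188, adjusted p = 0.00141) and 1.76-fold higher in STZ mice (log2 -0.81, SE 0.0949, adjusted p = 2.1e-05). Without control replicate 4 the Dagla difference in control mice was -0.92 (adjusted p = 2.6e-04). Abhd6 was 1.53-fold higher in pIC in control mice and 1.43-fold higher in STZ mice, with log2 differences of -0.62 (SE 0.0796) and -0.51 (SE 0.0676) and adjusted p of 1.4e-04 and 5.0e-05.

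Faah, which degrades anandamide, was 2.06-fold higher in pIC of control mice (log2 -1.04, SE 0.223, edgeR adjusted p = 0.00529) and 1.9-fold higher in STZ mice (log2 -0.93, SE 0.182, adjusted p = 0.00113). Napepld, which makes it, differed by -0.02 in control mice (SE 0.176, interval -0.41 to 0.38, adjusted p = 0.95) and by 0.08 in STZ mice (SE 0.229, interval -0.42 to 0.57, adjusted p = 0.809). Daglb was 1.23-fold higher in pIC of control mice (log2 -0.30, SE 0.103, adjusted p = 0.0299) and 1.25-fold higher in STZ mice (log2 -0.32, SE 0.0671, adjusted p = 0.00134). The Daglb call in control mice was lost when control replicate 1 was left out (adjusted p = 0.188), likewise for replicate 4 (0.168), and with the label as a block (0.0684).

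Beside these differences, the cortical excitatory neuron score in control mice ran from 3.90 to 6.03 in PVT and from 7.06 to 7.26 in pIC. Its 10 markers summed to 271 to 1206 CPM in PVT and to 2688 to 3081 CPM in pIC, and none was at 0 in either region. The oligodendrocyte markers summed to 8050 to 10033 CPM in PVT and 3288 to 4493 CPM in pIC of control mice. Among other neuron lists, 4 of 6 GABA neuron markers were higher and 2 lower in PVT, and of 8 markers of CCK and VIP interneurons, cells known for high CB1, 2 were higher and 5 lower. The part of cell content in the differences between regions was not tested.

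**Figure D2:**
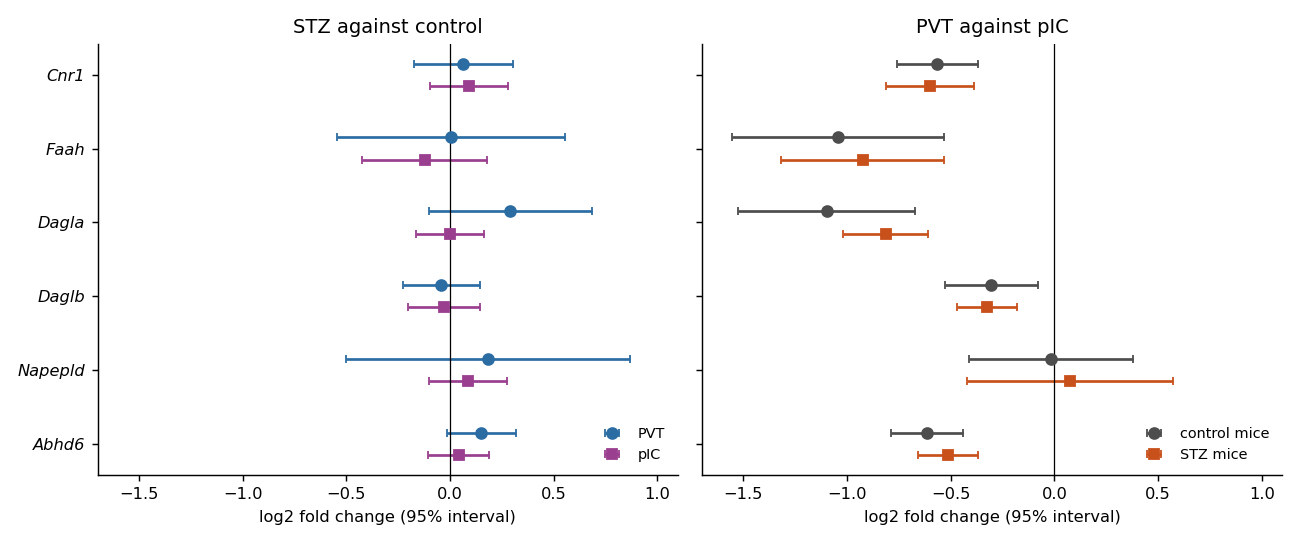
Log2 fold change of each of the 6 genes (points) with its 95% interval (bars), for STZ against control on the left and PVT against pIC on the right. On the left every interval includes 0, and on the right all genes except Napepld lie below 0 in both control and STZ mice.

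Differences in tissue content also ran within each region. Over the 10 libraries of each region, log2 CPM of each gene was correlated with the thalamus, cortical excitatory, striatal and ependyma scores, 48 relations in all, with permutation p-values adjusted over the 48. Pearson's r passed in 17, Spearman's rho in 9, and both in 9. No share of all genes passing against the same scores is given beside these counts. Whether the chosen genes track the scores more often than other genes was therefore not tested. Each relation compares values from the same libraries, so a gene and a score share the library, its scaling and its tissue content.

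Napepld in PVT tracked the thalamus score (r = 0.94, rho = 0.87, permutation test, adjusted p = 0.00272 and 0.0277, n = 10 libraries), with r = 0.85 without the 2 libraries farthest from the median score. Within the 6 STZ libraries r was 0.99. Replicates 5 and 6 of the PVT STZ group, highest for Napepld, had thalamus scores of 6.99 and 6.39. Replicates 1 and 2, lowest for Napepld in that group, had 4.17 and 4.19. Replicates 5 and 6 were also highest there in the habenula score (4.52 and 3.70) and the hypothalamus score (4.54 and 4.23). Relations of Napepld to these scores were not tested, so RNA of thalamus neurons and of neighbouring tissue cannot be told apart here. Napepld in PVT ran opposite to the striatal score (r = -0.85, rho = -0.81, permutation test, adjusted p = 0.00978 and 0.0375), and r was -0.73 without the 2 farthest libraries. In pIC no relation of Napepld passed.

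Faah in pIC tracked the cortical excitatory score (r = 0.98, rho = 0.93, permutation test, adjusted p = 7.2e-04 and 0.0199), with r = 0.87 without the 2 farthest libraries and 0.99 within STZ libraries. The lowest Faah library in pIC, STZ replicate 3 at 51.3 CPM, was also the lowest in cortical score. Faah ran opposite to the thalamus score in pIC (r = -0.92, rho = -0.90, adjusted p = 7.2e-04 and 0.0199 by permutation). It also ran opposite to the ependyma score (r = -0.90, rho = -0.81, adjusted p = 0.00795 and 0.0375 by permutation). Without the 2 farthest libraries these were r = -0.82 and -0.66. The thalamus score in pIC spanned only 2.57 to 3.48, below every PVT library. In pIC, STZ replicate 3 was highest in the thalamus, striatal and ependyma scores and lowest in the cortical score. Relations to these scores in pIC share that library and are not independent of each other. In pIC the ependyma score lay near the floor, from -1.27 in control replicate 4 to 0.60 in STZ replicate 3. Only 4 of its 8 markers passed the filter on low counts for STZ against control in pIC, so its relation to Faah is uncertain.

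Dagla in pIC also ran with the cortical and opposite to the thalamus score, and it ran opposite to the striatal score, with r = 0.80 and rho = 0.82 for cortical excitatory (permutation test, adjusted p = 0.0104 and 0.0375), r = -0.86 and rho = -0.88 for striatal (adjusted p = 0.00795 and 0.0261), and r = -0.90 and rho = -0.85 for thalamus (adjusted p = 0.00492 and 0.0298). Without the 2 farthest libraries r was 0.79, -0.86 and -0.81. The ependyma score did not pass for Dagla (r = -0.68, rho = -0.71, permutation test, adjusted p = 0.0636 and 0.0801), and for Faah the striatal score passed by r (-0.89, adjusted p = 0.00795) but not by rho (-0.73, adjusted p = 0.0668). Cnr1 in pIC had the opposite signs, with r = 0.82 for the striatal score, 0.79 for the thalamus score and -0.78 for the cortical score. These passed by r (permutation test, adjusted p = 0.0149, 0.0224 and 0.0113) but not by rho (0.0668, 0.141 and 0.119). Without the 2 farthest libraries r was 0.59, 0.54 and -0.60.

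In PVT, Cnr1 ran opposite to the thalamus score by r alone (r = -0.74, adjusted p = 0.0402, rho = -0.64, adjusted p = 0.123, permutation test), and r was -0.34 without the 2 farthest libraries, so that this relation rests on those libraries. Abhd6 in PVT ran opposite to the ependyma score (r = -0.81, rho = -0.83, permutation test, adjusted p = 0.0125 and 0.0354), with r = -0.53 without the 2 farthest libraries. All STZ libraries were lower than all control libraries in this score, and within the 6 STZ libraries r was -0.71. By r alone, the cortical score in PVT passed for Daglb (r = 0.79, adjusted p = 0.0219, rho = 0.76, adjusted p = 0.0551, permutation test). So it did for Abhd6 (r = 0.77, adjusted p = 0.0239, rho = 0.68, adjusted p = 0.0918). Without the 2 farthest libraries r was 0.67 and 0.53. Daglb in pIC ran opposite to the near-floor ependyma score by r alone (r = -0.73, adjusted p = 0.0301, rho = -0.60, adjusted p = 0.148).

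**Figure D3:**
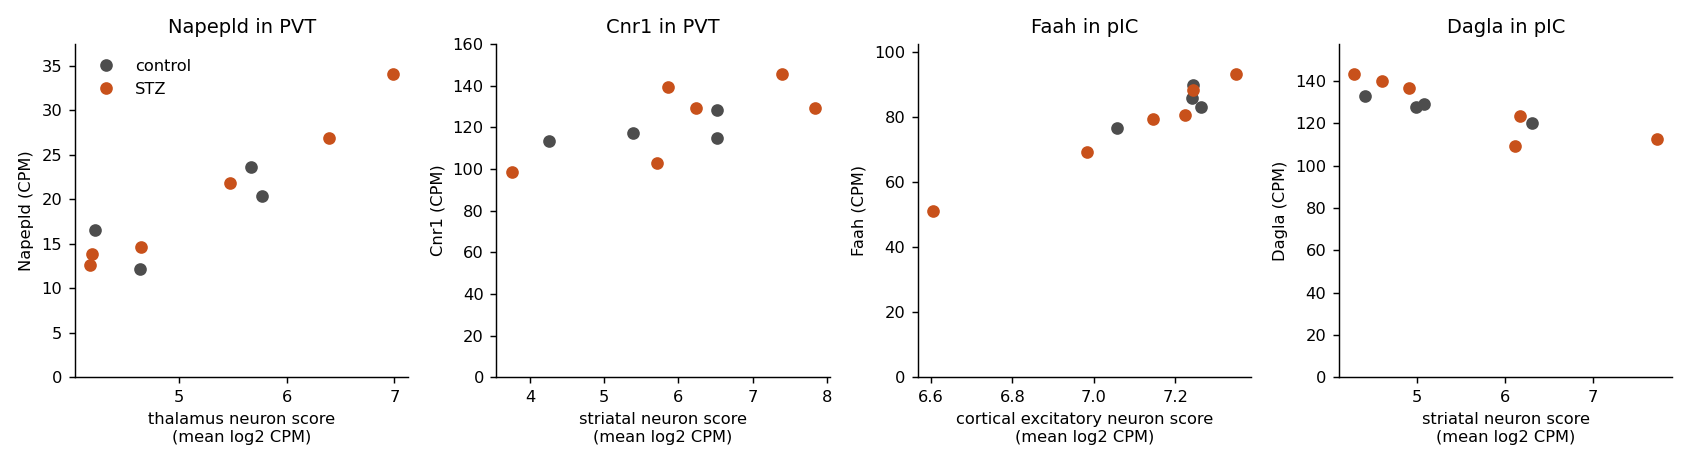
CPM of a gene (y axis, from 0) against a marker score (x axis, mean log2 CPM of the list) in the 10 libraries of 1 region, with control and STZ libraries in different colours. Napepld in PVT and Faah in pIC climb with the thalamus and cortical excitatory scores, Dagla in pIC declines with the striatal score, and Cnr1 against the striatal score in PVT (r = 0.71, adjusted p = 0.0585, permutation test) did not pass.

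The 6 genes were also correlated with each other within each region, 30 relations in all. By r 1 passed and by rho none did: Faah and Daglb in PVT had r = 0.89 and rho = 0.79 (permutation test, adjusted p = 0.0183 and 0.0661), with r = 0.72 without the 2 farthest libraries and 0.84 within STZ libraries. As a description with no test, the genes whose log2 CPM most resembled each member over the 10 libraries of both regions were taken from 12944 genes, ranked by the smaller of the r in PVT and the r in pIC. Faah was most like Hapln4 (0.94), Ywhah (0.93) and Atp6v0e2 (0.92), and Napepld was most like Abca7 (0.93), Slco2a1 (0.84) and Sez6l (0.84). Dagla was most like Kcnab2 (0.90), Camta2 (0.89) and Klc2 (0.88), and Cnr1 like Actn1 (0.87), Zdhhc13 (0.81) and Rasgef1a (0.81). For Abhd6 these were Otub2 (0.84), Becn1 (0.82) and Stard8 (0.79), and for Daglb Sox5 (0.83), Fech (0.81) and Prdm8 (0.79).

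The wider pathway was read from 5 lists of 57 genes. With STZ, 1 of 51 tested genes was lower and none higher in PVT, beside 1.59% lower and 0.474% higher over all genes, and none of 50 was called in pIC, beside 0.964% lower and 0.432% higher (edgeR). In control mice 26 of 51 were lower and 12 higher in PVT than in pIC, beside 22.4% lower and 25.5% higher over all genes, and in STZ mice 26 of 50 were lower and 11 higher, beside 23.1% lower and 26% higher.

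The list of 2-AG degradation and signal regulation had 4 of 7 genes lower and 2 higher in PVT of control mice. Mgll had 138 ± 31.7 CPM in PVT and 290 ± 37.3 CPM in pIC of control mice (n = 4 each), a log2 difference of -1.07 (SE 0.157, edgeR adjusted p = 4.5e-04). Its means in STZ mice were 165 ± 39.6 CPM in PVT and 308 ± 44.0 CPM in pIC, and it was not called with STZ in PVT (log2 0.27, adjusted p = 0.537) or in pIC (0.09, adjusted p = 0.827). Abhd12, another 2-AG hydrolase, differed by -0.54 between regions (adjusted p = 5.0e-04). Ces1d, a carboxylesterase, was higher in PVT by 4.65 (adjusted p = 5.4e-04), with 2.75 CPM in PVT and 0.108 CPM in pIC, where libraries held 1 to 5 counts of it. Pla2g4a, cytosolic phospholipase A2, was higher in PVT by 0.54 (adjusted p = 0.039), and this call was lost without any of the 4 control labels. With STZ none of the list was called: the lowest p belonged to Ces1d in PVT (log2 -1.42, adjusted p = 0.133 in edgeR and 0.0429 in DESeq2) and to Ptgs2, the cyclooxygenase that can oxidise 2-AG, in pIC. Ptgs2 had 22.1 ± 4.71 CPM in pIC STZ and 31.8 ± 4.19 CPM in pIC control libraries, a log2 fold change of -0.53 (SE 0.146, adjusted p = 0.127 in edgeR and 0.0186 in DESeq2).

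Of 14 genes of the anandamide and N-acylethanolamine routes, 12 were tested in control mice, and 4 were higher and 4 lower in PVT. Plaat3, an acyltransferase and phospholipase of this family, was higher in PVT by 1.08 (edgeR adjusted p = 5.5e-06), and Abhd4, which works on a route to anandamide that bypasses Napepld, by 0.63 (adjusted p = 1.1e-04). Fabp3, a fatty acid carrier, differed by -0.79 (adjusted p = 2.7e-04) and Gde1, a phosphodiesterase of another such route, by -0.51 (adjusted p = 8.2e-04). Plaat3 was the 1 pathway gene called with STZ: it fell in PVT from 71.3 ± 4.74 to 56.9 ± 3.61 CPM, a log2 fold change of -0.33 (SE 0.0635, adjusted p = 0.0262), and no STZ library reached the lowest control library. Markers of oligodendrocytes (3 of 8 lower) and ependyma (7 of 8 lower) differed in the same comparison, and with the ependyma score as a covariate the value was -0.20 (adjusted p = 1.00). The Plaat3 call was kept in 9 of 19 alternatives, with adjusted p from 6.2e-04 to 1.00. It was lost when control replicate 1, 2 or 4 or STZ replicate 1, 2, 4 or 5 was left out, where adjusted p ran from 0.0537 to 0.087. Fabp5, a carrier of anandamide, had a log2 fold change of -0.22 in pIC (adjusted p = 0.112).

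Among other receptors of cannabinoids and acylethanolamides, 4 of 8 passed the filter. Cnr2, the CB2 receptor of immune cells, had 3 to 12 counts per library, Trpv1 0 to 3, Gpr18 0 to 2 and Gpr119 0 to 6, too few to test. Gpr55 was higher in PVT of control mice by 1.21 (edgeR adjusted p = 0.00257) at 1.34 CPM, and Pparg was lower by a log2 difference of -1.95 (adjusted p = 4.6e-04) at 0.908 CPM in PVT and 3.49 CPM in pIC. In STZ mice Gpr55 was not called between regions (log2 0.62, adjusted p = 0.0598), with 1.34 CPM in PVT and 0.863 CPM in pIC. Ppard was lower too (-0.39, adjusted p = 0.00576, and 0.0513 without control replicate 1), while Ppara differed by 0.26 (adjusted p = 0.604). None was called with STZ. The smallest p belonged to Gpr55 in pIC (log2 0.59, adjusted p = 0.447) and to Ppara in PVT (0.22, adjusted p = 0.773).

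Of 12 receptors, G proteins and phospholipases upstream of diacylglycerol lipase, 7 were lower and 3 higher in PVT of control mice. Chrm1, the muscarinic M1 receptor, differed by -1.41 (edgeR adjusted p = 0.00105) and Plcb1, a phospholipase C that yields diacylglycerol, by -1.07 (adjusted p = 0.00133). Homer3, a postsynaptic scaffold, was higher in PVT by 1.31 (adjusted p = 1.3e-04). With STZ none was called. In PVT 11 of these 12 genes had a positive log2 fold change, with a median of 0.22, beside 50.8% of all genes and a median of 0.0038. In pIC 7 of 12 had one, with a median of 0.03, beside 49.8% of all genes and a median of -6.3e-04. PVT control replicate 4, the library with pituitary markers, was the lowest control library for 5 of the 12 genes, as for 27.9% of all genes, and without it 10 of 12 were positive with a median of 0.18. The smallest p belonged to Gnaq in PVT (0.18, adjusted p = 0.275) and Grm5 in pIC (0.16, adjusted p = 0.685).

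Of 16 effectors and regulators of CB1, 9 were lower and 2 higher in PVT of control mice. Rgs4, which shortens G protein signals, differed by -1.60 (edgeR adjusted p = 0.00142) and Kcnj3, a potassium channel opened by inhibitory G proteins, by -0.90 (adjusted p = 9.0e-04). The inhibitory G protein subunits Gnai2 and Gnai3 were higher in PVT by 0.47 (adjusted p = 6.2e-04) and 0.22 (adjusted p = 0.0128). The Gnai3 call was lost when control replicate 1 or 4 was left out and when low counts were not filtered, with adjusted p from 0.051 to 0.0949. With STZ none was called, and 13 of 16 had a positive log2 fold change in PVT (median 0.19) and 8 of 16 in pIC (median -0.0056), beside 50.8% and 49.8% of all genes. PVT control replicate 4 was the lowest control library for 10 of these 16 genes, and without it 12 of 16 were positive, with a median of 0.07 beside 0.0099 over all genes. Leaving this library out of both lists was chosen after seeing the data. The smallest p belonged to Gnai2 in both regions, with -0.17 in PVT (adjusted p = 0.173) and -0.15 in pIC (adjusted p = 0.231).

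**Figure D4:**
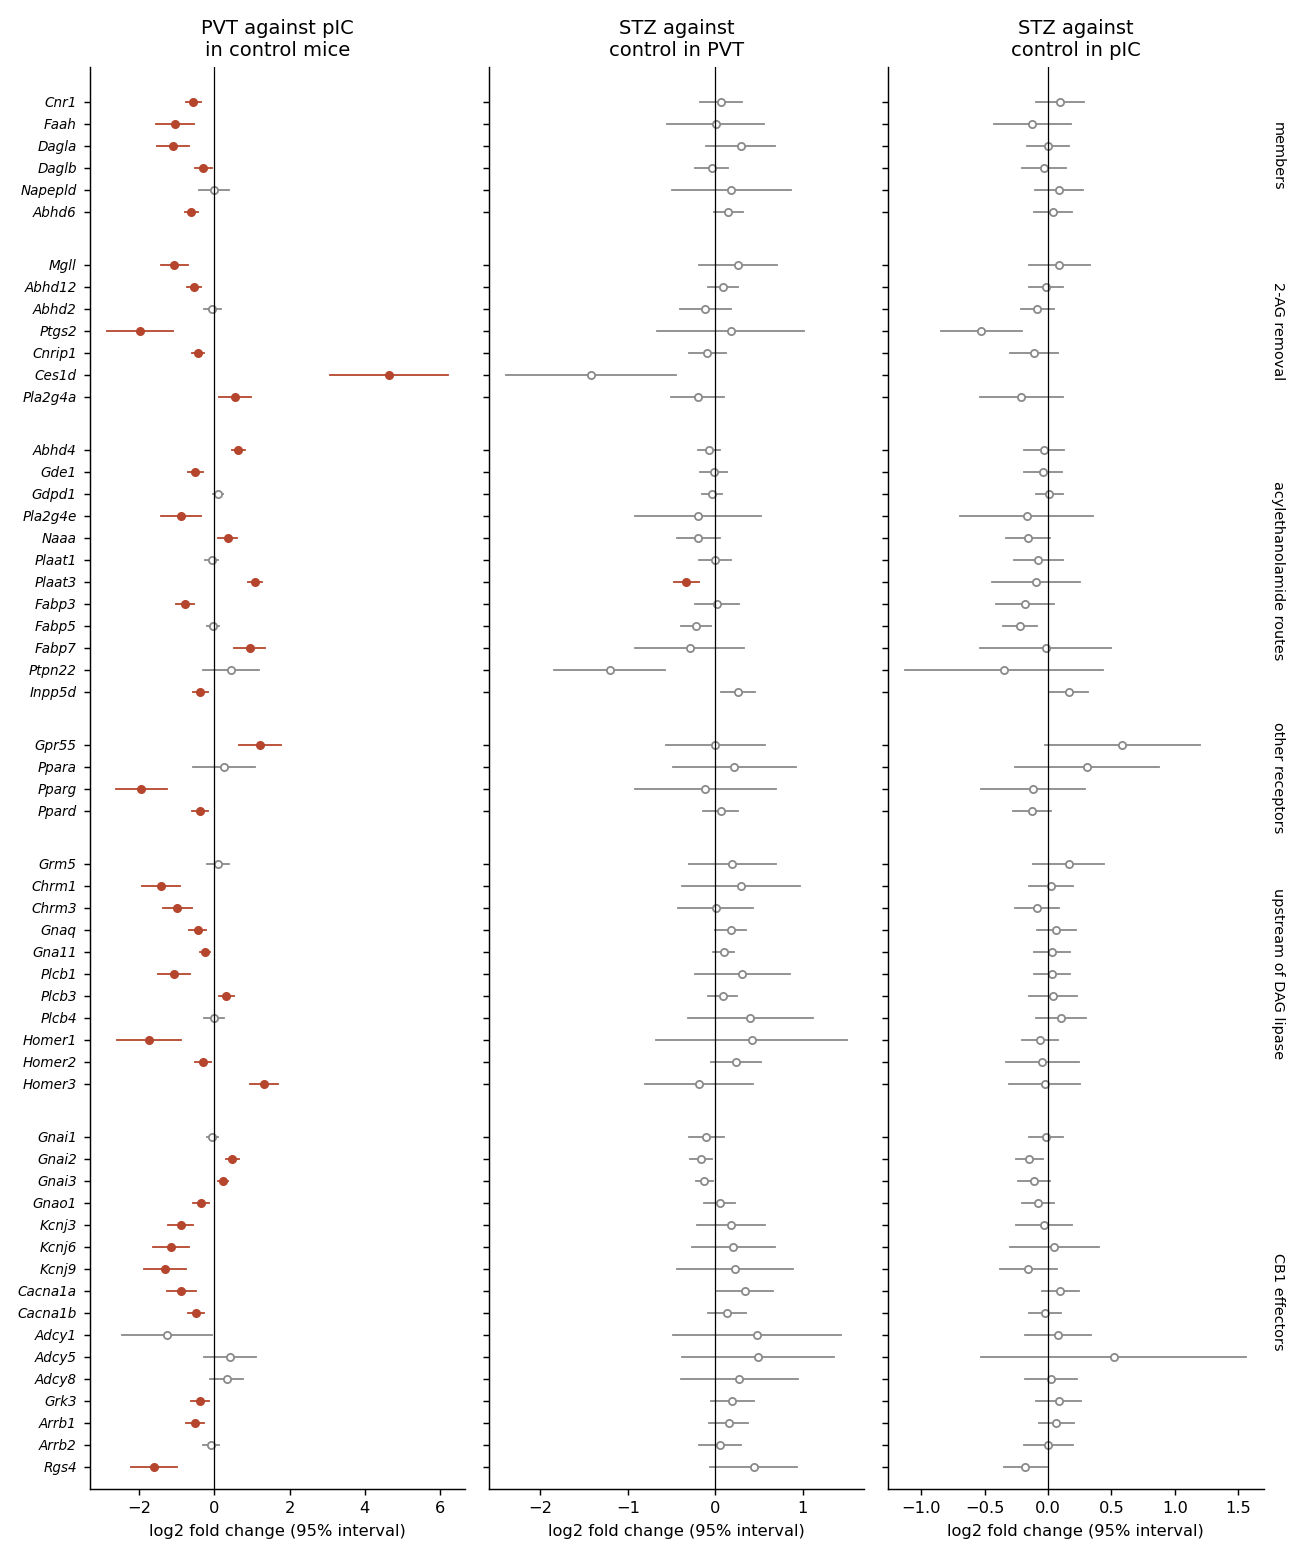
Log2 fold change with its 95% interval for the 6 genes and 50 genes of the 5 pathway lists, in 3 comparisons with separate x axes. Filled red points are genes called at an adjusted p under 0.05 (edgeR): 42 of 56 are filled for PVT against pIC in control mice, 1 (Plaat3) for STZ in PVT and none for STZ in pIC.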

How the data were processed

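The deposited table holds raw counts for 57180 Ensembl identifiers in 20 libraries. It was made by the authors from poly(A)-selected, stranded, paired-end libraries, per the labels' protocols. Builds GRCm39 and mm39 are named in the submitters' processing notes. The aligner is not given in the sources used here, nor is the counting program or the annotation release. In all, 51884 identifiers were matched to symbols (GENCODE M21, or RefSeq synonyms for 3 genes of the Plaat family). That annotation is of an earlier build, so it served for names, exon lengths and overlaps only.

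The members and lists were chosen with earlier results of these data known. Counts were tested with edgeR 4.0.16 in R 4.3.3: TMM scaling, filterByExpr (minimum count 10, minimum total 15), robust quasi-likelihood F test and Benjamini-Hochberg adjustment over all genes tested, with calls under 0.05. Each region was fitted alone for STZ against control, each treatment alone for PVT against pIC, and all 20 libraries for the interaction. CPM uses TMM factors over all 20 libraries, and log2 CPM a prior count of 2. SE and 95% intervals are those of the log2 fold change and cover the spread between libraries. Correlations used 100000 permutations, two-sided. Pathway genes named were those called with STZ, or the 1 of smallest p, and for the regions the 2 of smallest p in each direction of each list. One of these is not reported here.

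Alternatives were RLE scaling, no filter, DESeq2 1.42.0, a replicate block and leaving out each library. For STZ against control they also included all libraries in 1 fit and 4 marker scores as covariates. The block for STZ against control was the bare number, which matched libraries of different mice. STZ replicates 5 and 6 had no control partner in it. Between regions and in the interaction the block was the label. Where a replicate was left out of a comparison across regions, both libraries of that label were removed. No libraries of a group were duplicates (lowest chi-square per degree of freedom 3.79). The edgeR fits were tested on simulated data.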

Additional observations from a re-analysis of the deposited data

Results flagged for a closer look

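The highest and lowest libraries of each of the 6 genes were looked at in each of the 4 groups, 24 in all, with Dixon's test at 95%, which flags about 1 group in 20 by chance. It flagged 2. Cnr1 in pIC control replicate 3 stood at 208 CPM, with the next library at 170 CPM and a gap of 0.839 of the group's range. Abhd6 in PVT STZ replicate 2 stood at 51.5 CPM, with the next at 45.0 CPM and a gap of 0.703 of the range. Both gaps were above the critical value for their group size.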

How the results depend on the processing

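None of the 6 genes was called with STZ in either region, or in the interaction, under any alternative run. Cnr1, Faah, Dagla and Abhd6 stayed lower in PVT and called in both comparisons between regions, and Daglb in STZ mice, under RLE scaling, no filter, DESeq2, the block and without single labels. Marker scores were not run as covariates between regions. Genes called over the whole table moved more. In PVT, against 353, there were 904 with DESeq2, 72 with the replicate block, 679 with all libraries in 1 fit, 1138, 664 and 8 with the thalamus, striatal and ependyma scores as covariates, and 143 to 343 without single libraries. In pIC, against 226, there were 468 with DESeq2, 350, 376, 379 and 368 with the thalamus, cortical, striatal and ependyma scores, and 128 to 272 without single libraries. The interaction had 1 without the filter, 4 with DESeq2 and 0 to 1 without single labels. The cause of these moves was not tested.

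Signs changed only for uncalled values. In PVT with STZ, log2 fold changes turned for Faah (replicate block -0.11, all libraries in 1 fit -0.0039, thalamus -0.055, cortical -0.017, ependyma -0.35, without single libraries -0.17 to 0.20), Napepld (block -0.21, thalamus -0.0018, ependyma -0.013, single libraries -0.017 to 0.34) and Daglb (single libraries -0.11 to 0.012). With the ependyma score Dagla was -0.14, Abhd6 -0.14, Ces1d 0.32 and Ppara -0.12, and Ppara without single libraries ran from -0.019 to 0.46. In pIC, Dagla was -0.034 with the block and -0.036 to 0.041 without single libraries. Daglb there was 0.013 with the thalamus, 0.0090 with the cortical, 0.0028 with the striatal and 0.011 with the ependyma score, and -0.069 to 0.021 without single libraries. Between regions without single labels, Napepld ran from -0.14 to 0.11 and Ppara from -0.095 to 0.40 in control mice, and Napepld from -0.12 to 0.19 in STZ mice, with -0.0089 under the block. Interactions without single labels ran from -0.14 to 0.035 for Cnr1, -0.088 to 0.36 for Faah, -0.11 to 0.073 for Daglb and -0.10 to 0.23 for Napepld.

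Labels do not say whether equal numbers mark 1 mouse or batch, so pairing was not assumed. Some same-numbered pairs deviated together from their group means and others did not, so these correlations cannot decide whether libraries were paired. Correlations of same-numbered libraries were -0.30 to 0.54 between control and STZ in PVT, -0.04 to 0.41 in pIC, -0.12 to 0.15 between regions in control and -0.08 to 0.27 in STZ mice. The library that correlated best was the same-numbered one for 1 of 4, 2 of 4, 1 of 4 and 4 of 6 numbers in these comparisons. Control replicate 4 had the highest pituitary score of its region in both PVT (8.68) and pIC (0.95). The next highest in pIC was -1.22, and the cause of this was not tested. The block gave 240 called genes in pIC and 0 in the interaction. Between regions it gave 7138 in control mice, against 7948, and 8072 in STZ mice, against 8089.

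Depth was at least 307 counts for each of the 6 genes in every library. For Napepld, the gene with the fewest, counting error at the mean count was 4.45% to 5.05%, beside a coefficient of variation of 41.5% in PVT STZ and 6.31% in pIC control libraries.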
